A study of Mus musculus with 10 samples.

Results

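Antisense gene-body units are transcribed units (TUs) that the authors assigned to the class Antisense_Gene_Body, for transcription antisense to the body of an annotated gene. The deposited table lists 5493 of them. The 2831 with more than 10 fragments in 2 or more of the 10 libraries are described here, out of 28459 TUs of all classes that passed the same filter and 40779 deposited. The 2662 left out held 3.28% of the fragments of the class. At the edge of the filter, the 320 kept units with exactly 2 libraries over 10 fragments had a median of 7.6 fragments per library, and the 561 left out with exactly 1 such library had a median of 6. Nascent RNA was read with TT_chem-seq, in which new RNA is labelled with 4-thiouridine (4SU, here 2 mM for 10 min), fragmented, captured and sequenced with its strand known. The cells were E14 mouse embryonic stem cells (E14Tg2A, with IB10 named for the SOX2 targeting) in which the transcription factor SOX2 carries an FKBP tag. They were kept in serum-free medium with LIF, the MEK inhibitor PD0325901 and the GSK3 inhibitor CHIR99021. By the methods, homozygous clones that responded to dTAG-13 were used, so the tag is shared by every group. Each group held 2 libraries: cells not treated with the degrader (NT), which received DMSO, and cells given 500 nM dTAG-13, which directs tagged SOX2 to degradation, for 0.5, 1, 2 or 6 hours (hours post depletion, hpd). The labels do not say whether the replicates were separate cultures, so p-values measure the spread between these libraries, and in bulk RNA fewer transcribing cells and less RNA per cell cannot be told apart.

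Transcription inside a gene on its opposite strand is common in mammalian cells. It can start at enhancers or cryptic promoters within introns, near the 3′ end of the gene, or at a neighbouring gene whose RNA runs on, and most of these RNAs are short-lived, so that they are seen in nascent RNA more readily than in steady-state RNA. Antisense transcription is known to lower the sense gene at some loci, whereas at others both strands rise and fall together.

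Libraries held 11131490 to 25854106 fragments, of which the antisense gene-body units took 2.00%. The 6 stem cell markers checked, Pou5f1 and Nanog among them, had 230 to 26886 fragments per library. Of 18 markers of fibroblast feeders, primitive endoderm, trophoblast, mesoderm and neural cells, 8 had no unit and 7 stayed under 60 fragments in every library, while Sparc (1165 to 3092), Pax6 (138 to 451) and Eomes (32 to 176) were higher.

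The class was compared with RefSeq on the same strand, with positions on mm10, the build of the files. In 409 units (14.4%) the unit overlapped a RefSeq gene on its own strand, and these held 60.8% of the fragments of the class. In 269 of them at least 50% of the unit lay in 1 such gene. The unit opposite Gm31288, for instance, lay over 73.9% of its length on the strand of Fgfr1, the gene of a fibroblast growth factor receptor. Among the rest, with no gene on their own strand, 2106 (74.4% of all 2831 units) lay opposite a TU of a single gene, here called the host, and 316 (11.2% of all) did not. The 2106 units faced 1824 hosts, and 1587 lay wholly inside the host. Their first base fell in an intron of the host in 65.1%, in an exon in 6.36% and outside the annotated host gene in 23.3%. The start lay a median of 21.7 kb from the host start (quartiles 9.25 and 44.1 kb), and 99 units started within 2 kb of it. Over 5 equal parts of the host TU, from its start to its end, the starts numbered 432, 459, 388, 277 and 298, and 252 more lay past the host end.

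Short and long units differed in their share of repeats. The median length was 4.76 kb, with a range of 0.119 to 437.585 kb, and 809 units (28.6%) were under 1 kb. In the 554 units of up to 0.5 kb a median of 76.9% of bases were soft-masked in the reference, the lower-case marking of repeats, against 25.8% in units of 5 to 20 kb and 27.5% in the host TUs. Per library, the median unit of up to 0.5 kb had 12.9 fragments and that of 5 to 20 kb had 24.3. Their median levels in NT were 3.14 and 0.184 CPM per kb. The fragment filter applies the same count at any length, so a shorter unit needs a higher level per kb to be kept.

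**Figure D1:**
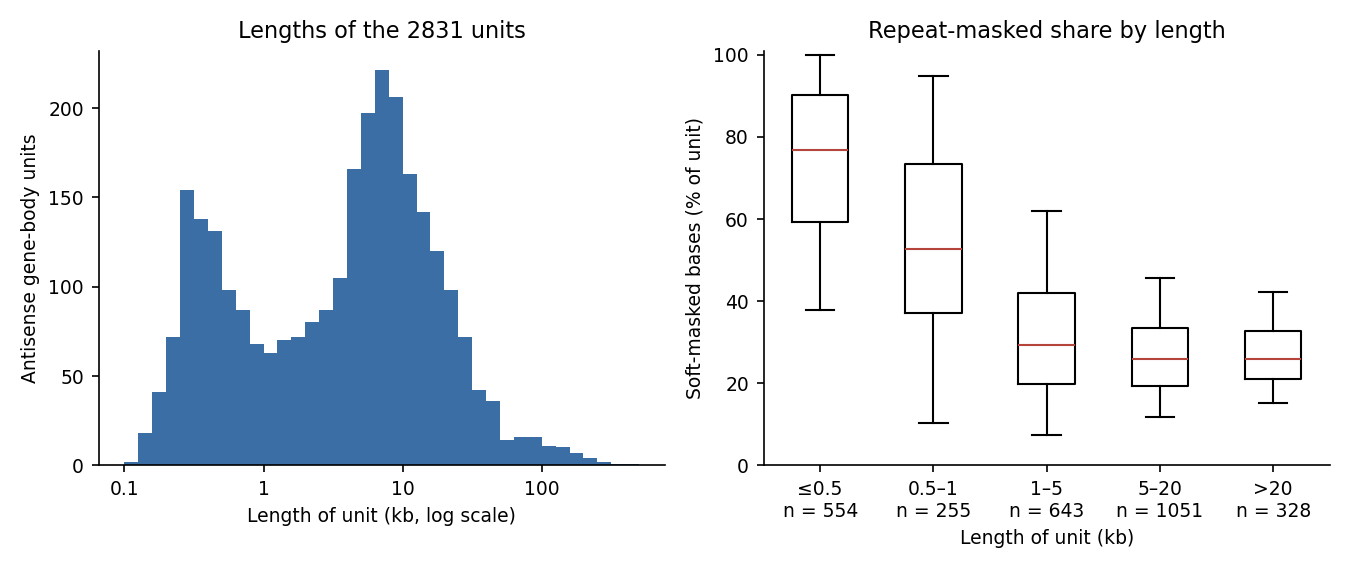
Left, number of antisense gene-body units by length in kb on a log scale; right, percent of bases soft-masked in the reference by length class, with the median (red), quartiles (box) and 5th and 95th percentiles (whiskers). The median masked share goes from 76.9% in units of up to 0.5 kb to 26.0% in those over 20 kb.

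The starts of 5 units are shown, each as 150 bases on either side of the deposited first base, read 5′ to 3′ along the antisense strand from GRCm38 (mm10). Those opposite Suv39h1 and Ak9 were the falling units with the smallest p at each time, the one opposite Mta3 is among the 3 with the clearest loss relative to the host, and those in Tet2 and Sox2 face genes of the pluripotency network. Capitals mark the SOX core motif ACAATG or, on the other strand, its complement CATTGT.
Suv39h1 antisense start, chrX:8048383-8048682, + strand: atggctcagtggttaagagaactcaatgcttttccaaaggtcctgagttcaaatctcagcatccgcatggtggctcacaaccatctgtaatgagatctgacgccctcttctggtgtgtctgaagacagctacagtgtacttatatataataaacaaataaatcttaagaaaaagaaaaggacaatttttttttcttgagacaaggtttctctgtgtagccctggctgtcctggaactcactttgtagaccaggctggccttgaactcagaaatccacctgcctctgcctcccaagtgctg
Ak9 antisense start, chr10:41415362-41415661, - strand: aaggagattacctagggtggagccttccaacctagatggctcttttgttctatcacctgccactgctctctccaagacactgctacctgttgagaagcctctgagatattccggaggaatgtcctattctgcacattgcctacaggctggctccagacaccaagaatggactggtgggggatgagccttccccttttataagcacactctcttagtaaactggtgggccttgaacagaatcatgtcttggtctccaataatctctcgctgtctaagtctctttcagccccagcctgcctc
Mta3 antisense start, chr17:83750136-83750435, - strand: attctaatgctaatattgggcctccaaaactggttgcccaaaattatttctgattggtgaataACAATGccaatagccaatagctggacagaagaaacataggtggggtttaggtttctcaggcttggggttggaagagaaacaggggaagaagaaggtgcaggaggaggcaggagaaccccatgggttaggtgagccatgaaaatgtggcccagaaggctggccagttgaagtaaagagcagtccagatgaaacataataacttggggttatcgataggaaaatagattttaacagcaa
Tet2 antisense start, chr3:133523107-133523406, + strand: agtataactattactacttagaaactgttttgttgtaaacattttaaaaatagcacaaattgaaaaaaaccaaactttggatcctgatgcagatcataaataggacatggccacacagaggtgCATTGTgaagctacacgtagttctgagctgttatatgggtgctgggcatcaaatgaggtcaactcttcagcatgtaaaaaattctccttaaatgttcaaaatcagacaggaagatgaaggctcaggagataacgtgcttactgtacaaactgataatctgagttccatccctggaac
Sox2 antisense start, chr3:34671982-34672281, - strand: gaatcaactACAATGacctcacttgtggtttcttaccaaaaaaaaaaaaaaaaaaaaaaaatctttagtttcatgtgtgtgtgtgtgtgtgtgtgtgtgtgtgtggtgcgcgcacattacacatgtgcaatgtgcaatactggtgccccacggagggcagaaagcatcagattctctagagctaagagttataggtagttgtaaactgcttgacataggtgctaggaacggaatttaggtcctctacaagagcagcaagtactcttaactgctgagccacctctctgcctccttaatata
The window of the Suv39h1 unit was soft-masked over 100% of its bases and that of the Ak9 unit over 76%, and neither held a match. Those in Mta3, Tet2 and Sox2 were masked over 53%, 31% and 56%. Among named falling units not shown, the windows opposite Pde3a, Cntn5, Gabrp, Sptlc2, Gm39592, Gm33006 and Setdb1 held no match. That opposite Fgf4 held 1. The match began 87 bases upstream of the first base of the unit in Mta3, 27 upstream in Tet2 and 141 upstream in Sox2. The Tet2 start shown is that of the 4.26 kb unit, and the windows of the other called Tet2 units held no match.

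Exact matches to the SOX core ACAATG, the octamer ATGCAAAT, which OCT4 binds, and the OCT4-SOX2 composite TTGTNATGC were counted on both strands of these windows. The composite and the octamer share letters and can overlap. The SOX core was present in 309 of 2831 units (10.9%), against 9.41% of all tested TUs and 7.92% of TUs of a single gene. Among unannotated units with a host it was present in 13 of the 70 that fell at 1 hpd (18.6%, 95% Wilson interval 11.2% to 29.2%) and 40 of the 232 that fell at 6 hpd (17.2%, 12.9% to 22.6%), and in 171 of the 1805 not called at any time (9.47%, 8.21% to 10.9%). With units of at least 1 kb alone, the shares were 33 of 172 at 6 hpd (19.2%, 14.0% to 25.7%) and 119 of 1231 not called (9.67%, 8.14% to 11.4%), whereas units under 1 kb gave 7 of 60 (11.7%, 5.77% to 22.2%) and 52 of 574 (9.06%, 6.98% to 11.7%), with overlapping intervals. The octamer was in 33 of all 2106 (1.57%) and the composite in 15 (0.712%), against 1.77% and 0.545% of all tested TUs. The composite was in 1 of the 70 (1.43%), 2 of the 232 (0.862%) and 13 of the 1805 (0.720%). In the 300 bases upstream of the start instead, the SOX core was present in 18 of the 70 (25.7%, 16.9% to 37.0%), 49 of the 232 (21.1%, 16.4% to 26.8%) and 213 of the 1805 (11.8%, 10.4% to 13.4%), and the composite in 4 of the 70 (5.71%, 2.24% to 13.8%), 5 of the 232 (2.16%, 0.924% to 4.94%) and 9 of the 1805 (0.499%, 0.263% to 0.945%). The intervals cover counting error only, and a match describes letters in the window.

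Per kb, the antisense unit stood at a median of 55.5% of its host in NT over 2084 pairs with a tested host (mean CPM per kb of the 2 NT libraries, quartiles 14.0% and 226%). The NT libraries taken singly gave 46.5% and 61.0%. Units of at least 1 kb stood at a median of 26.3% of the host level over 1452 pairs, and 334 exceeded it. Units under 1 kb stood at 285% over 632 pairs, with 478 above the host. The fragment filter sets a higher floor per kb for shorter units. These shares and the 55.5% therefore depend on the filter and on unit length. The 3 densest units held 2330 CPM per kb in a unit of 0.243 kb opposite LOC108168339, 702 in one of 1.42 kb in Jarid2, which encodes a partner of Polycomb repressive complex, and 100 in one of 0.415 kb in Tmtc2. Raw fragments of these 3 units hardly followed the depth of the libraries. They ranged from 7575 to 8368, from 12357 to 16770 and from 500 to 693, a span of 1.1, 1.36 and 1.39 times, while library totals spanned 2.32 times. Their CPM therefore moved with library size, and none of the 3 passed the test at any time. Whether their fragments came from antisense transcription at these places was not tested.

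After SOX2 was depleted, more antisense gene-body units fell than rose at each time, though without 0.5 hpd replicate 1 the 0.5 hpd counts were 5 down and 6 up. Against NT, 20 units fell and 8 rose at 0.5 hpd (edgeR quasi-likelihood F-test, Benjamini-Hochberg adjusted p under 0.05 over all tested TUs), where 0.787% of all tested TUs fell and 0.527% rose. At 1 hpd 94 fell and 19 rose, beside 3.61% and 2.15% of all TUs. By 2 hpd 158 fell and 40 rose, beside 5.57% and 4.26%, and by 6 hpd 306 fell and 57 rose, beside 9.2% and 6.61%. The share of the class that fell was 0.706%, 3.32%, 5.58% and 10.8%, near that of all TUs, and the share that rose, 0.283%, 0.671%, 1.41% and 2.01%, lay below it. For 6 hpd, intergenic TUs (class Extragenic) gave 11.9% down and 2.60% up, antisense units at gene starts 6.77% and 1.78%, and antisense units at gene ends 12.5% and 4.04%. The difference between classes was not tested. With library totals in place of TMM factors 15, 102, 185 and 321 units of the class fell and 6, 12, 19 and 37 rose. A replicate block raised the counts in both directions at each time, as given at the end.

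Units with and without a gene on their own strand were counted apart, with no test of the difference. At 6 hpd, where 9.2% of all TUs fell and 6.61% rose, 232 of the 2106 unannotated units with a host fell and 32 rose, and 43 of the 316 without a host fell and 1 rose, whereas of the 409 units with a gene on their own strand 31 fell and 24 rose. Their median log2 changes at 6 hpd were -0.36, -0.39 and 0.08, against -0.04 over all TUs. Along the host, from start to end, 10.2%, 11.3%, 11.1%, 13.4% and 9.73% of the unannotated units fell at 6 hpd, and 10.7% of those that started past its end. Without NT replicate 2 the falling units of the whole class dropped from 306 to 103.

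Long units were called from 0.5 hpd on and short units mainly at 6 hpd. Of the 2022 units of at least 1 kb, 20, 93, 148 and 234 fell at the 4 times in edgeR (0.989%, 4.60%, 7.32% and 11.6%, beside 0.787%, 3.61%, 5.57% and 9.2% of all TUs) and 12, 51, 88 and 147 in DESeq2. Of the 809 shorter ones 0, 1, 10 and 72 fell in edgeR and 0, 0, 2 and 24 in DESeq2, with 20 at an unadjusted p under 0.05 at 0.5 hpd. The median CPM of the short units was 0.740 and 1.09 in NT, 0.741 and 0.941 after 0.5 h, 0.753 and 0.797 after 1 h, 0.708 and 0.818 after 2 h, and 0.562 and 0.641 after 6 h. Both 6 hpd libraries lay below all others, and NT replicate 2 above all others. Long units had medians of 1.41 and 1.67 CPM in NT and 1.26 and 1.28 after 6 h.

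**Figure D2:**
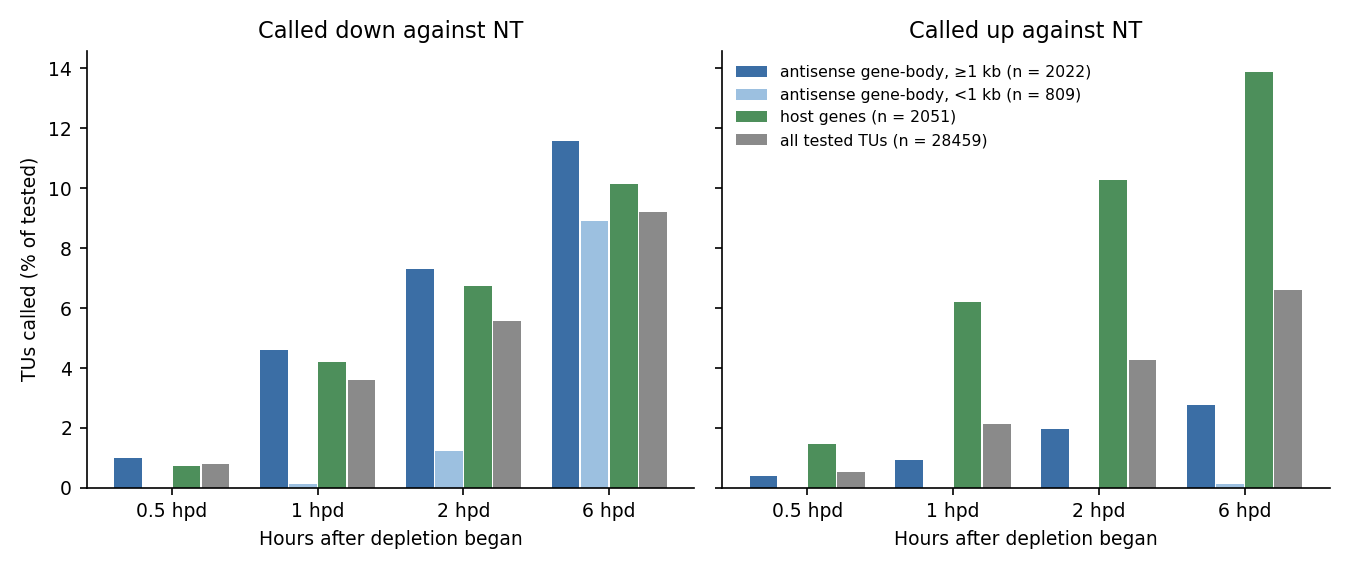
Percent of tested TUs called down (left) and up (right) against NT at each time, for antisense gene-body units of at least 1 kb and under 1 kb, host genes and all tested TUs. At 6 hpd 11.6% of the long units and 8.90% of the short ones fell, and 2.77% and 0.124% rose, while 13.9% of hosts rose.

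The median shift of the class depended on single libraries, most of all on NT replicate 2. The median log2 change of the 2831 units was -0.07, -0.17, -0.19 and -0.30 at the 4 times, against -0.02, -0.04, -0.04 and -0.04 over all TUs. Without NT replicate 2 it was 0.09, 0.02, -0.03 and -0.11, and without NT replicate 1 it was -0.19, -0.27, -0.32 and -0.44. The median over all TUs without NT replicate 2 was 0.003 at 6 hpd. At 0.5 hpd the class stood at 0.008 without 0.5 hpd replicate 1. The count of falling units was 4, 41, 69 and 103 without NT replicate 2 and 13, 80, 155 and 329 without NT replicate 1. Of the 306 units that fell at 6 hpd, 102 were among the 103. Units called down in each of the 10 fits that left out 1 library numbered 4, 28, 55 and 85, of which 79 of the last were at least 1 kb long, and 0, 3, 7 and 16 were called up in each.

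**Figure D3:**
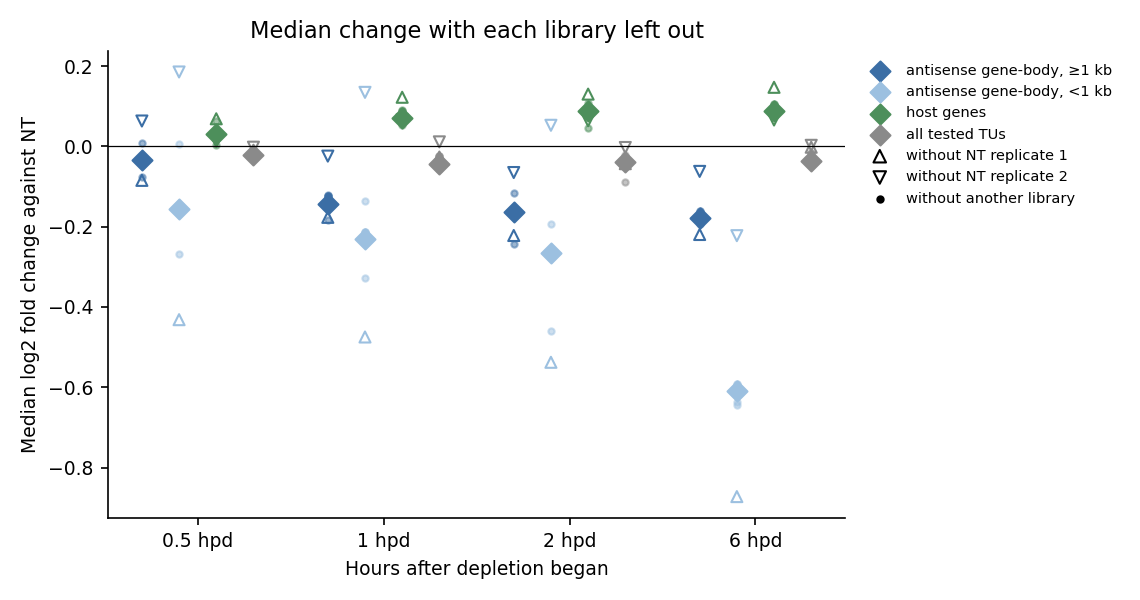
Median log2 change against NT at each time for long and short antisense gene-body units, host genes and all tested TUs, with all 10 libraries (diamonds), without NT replicate 1 (triangles up), without NT replicate 2 (triangles down) or without another library (dots). At 6 hpd the short units stood at -0.61 with all libraries, -0.22 without NT replicate 2 and -0.87 without NT replicate 1.

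Single units changed by far more than the libraries of a group differed. The unit over Suv39h1, the gene of a histone H3 lysine 9 methyltransferase, spanned 31.3 kb (chrX:8048533-8079798, + strand), from past the host end back through the host and beyond its start. Its CPM were 71.2 and 69.3 in NT, 34.6 and 30.8 after 0.5 h, 16 and 17.3 after 1 h, 14.1 and 14.7 after 2 h, and 8.5 and 10.9 after 6 h. Each group lay below the one before it with no overlap. The log2 changes against NT were -1.10 ± 0.12 (SE), -2.08 ± 0.13, -2.29 ± 0.13 and -2.85 ± 0.13, with adjusted p (edgeR) from 4.0e-04 down to 5.2e-09, and each call held under every alternative. Suv39h1 itself had CPM of 42.9 and 38.9 in NT, 43.6 and 42.5 after 0.5 h, 56.1 and 54.8 after 1 h, 56.2 and 53.8 after 2 h, and 60.3 and 57.4 after 6 h. The host rose at 1, 2 and 6 hpd, by 0.44 ± 0.10, 0.43 ± 0.10 and 0.52 ± 0.10 on the log2 scale, but the 1 hpd rise did not pass without NT replicate 2 or either 1 hpd library, nor the 2 hpd rise without NT replicate 2 or 2 hpd replicate 1, with library totals or with only the libraries compared, and it stood at 0.08 ± 0.10 at 0.5 hpd (adjusted p = 0.91, edgeR).

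The unit in Ak9, the gene of an adenylate kinase, started in an intron toward the end of the gene and covered 16.9 kb (chr10:41398567-41415511, - strand). Its CPM were 17.2 and 20.6 in NT, 7.18 and 6.67 after 0.5 h, 3.01 and 3.36 after 1 h, 1.97 and 2.05 after 2 h, and 1.55 and 2.04 after 6 h. All depleted libraries lay below both NT libraries, and the unit fell, with log2 changes from -1.44 ± 0.17 at 0.5 hpd to -3.38 ± 0.20 at 6 hpd. The host fell too, from 11.5 and 11.8 CPM in NT to 10.7 and 10.3 after 0.5 h and 4.5 and 4.54 after 6 h, with log2 changes of -0.15 ± 0.16 (adjusted p = 0.87, edgeR), -0.80 ± 0.16 by 2 hpd and -1.37 ± 0.17 by 6 hpd.

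The unit in an intron of Mta3, which encodes a subunit of the NuRD chromatin remodelling complex, was 9.68 kb long (chr17:83740609-83750285, - strand). It had 65 and 49 in NT, 35 and 13 after 0.5 h, 9 and 8 after 1 h, 5 and 2 after 2 h, and 6 and 4 after 6 h as raw fragments. The levels at 1, 2 and 6 hpd lay far under both NT libraries, with log2 changes of -2.95 ± 0.35, -4.34 ± 0.41 and -3.61 ± 0.39. The 0.5 hpd change, -1.64 ± 0.30, did not pass in DESeq2 or when any of the NT or 0.5 hpd libraries was omitted. Mta3 itself went from 226 and 200 CPM in NT to 275 and 289 after 6 h, a rise of 0.40 ± 0.11 on the log2 scale that did not pass without NT replicate 2 or 6 hpd replicate 2.

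Opposite Pde3a, which encodes a phosphodiesterase of cyclic nucleotides, a unit of 121 kb (chr6:141457983-141578879, - strand) began beyond the gene and entered its end. Its CPM were 43.3 and 61.1 in NT, 45.5 and 42.5 after 0.5 h, 24.6 and 29.4 after 1 h, 11.7 and 12.6 after 2 h, and 6.88 and 10.8 after 6 h. From 1 hpd on every library lay below NT, with log2 changes of -0.95 ± 0.18, -2.10 ± 0.19 and -2.54 ± 0.20, of which the first did not pass without NT replicate 2 or 1 hpd replicate 1. Pde3a rose at 2 hpd by 1.21 ± 0.22, from 5.72 and 4.21 to 12.8 and 10.2 CPM. It was not called at 1 or 6 hpd, where its log2 changes were 0.74 ± 0.22 and 0.55 ± 0.23 (adjusted p = 0.07 and 0.113, edgeR).

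Cntn5 encodes a contactin, an adhesion molecule of neurons. The CPM of its antisense unit (chr9:10437041-10466279, + strand) were 8.14 and 9.45 in NT, 9.72 and 9.32 after 0.5 h, 4.27 and 5.87 after 1 h, 1.47 and 1.58 after 2 h, and 0.773 and 0.466 after 6 h. The libraries of 0.5 h overlapped NT and those of 2 and 6 h lay far below, with a log2 change of -3.84 ± 0.28 at 6 hpd (adjusted p = 5.1e-07, edgeR). After 1 h it was -0.79 ± 0.20, a call that did not hold in DESeq2 or when any of the NT or 1 hpd libraries was omitted. Cntn5 itself had 5 to 22 fragments per library and went from 1.08 and 1.09 CPM in NT to 0.253 and 0.351 after 2 h and 0.351 and 0.524 after 6 h. It fell at 2 hpd, with -1.83 ± 0.45, a call lost in DESeq2 and without either NT library or 2 hpd replicate 1, and was not called at 6 hpd (-1.27 ± 0.43, adjusted p = 0.06, edgeR). The antisense-to-host ratio fell by 2.57 at 6 hpd on the log2 scale, not without 6 hpd replicate 2. Opposite Gabrp, the gene of a GABA-A receptor subunit, a unit of 56.8 kb that overlapped the host over 12.1% of its length went from 80.8 and 105 CPM in NT to 22.1 and 24.1 after 6 h, by -2.0 ± 0.14 on the log2 scale. A unit without a host (chr2:38669440-38688270, + strand), which lies on the strand of the pseudogene Adgrd2-ps, had 65 and 79 fragments in NT, 42 and 16 after 0.5 h and 2 to 5 per library from 1 h on. It fell at all 4 times, at 0.5 hpd not without NT replicate 2 or either 0.5 hpd library.

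The unit opposite Sptlc2, which encodes a subunit of serine palmitoyltransferase, kept a lower level from the first time point. Its CPM were 19.1 and 18 in NT, 9.52 and 8.72 after 0.5 h, 7.71 and 8.26 after 1 h, 7.89 and 7.77 after 2 h, and 10.7 and 11.7 after 6 h. All 4 depleted groups lay below NT, with log2 changes of -1.02 ± 0.14, -1.22 ± 0.14, -1.25 ± 0.14 and -0.73 ± 0.14, and each call held under every alternative. The unit opposite Gm39592 also fell at all 4 times, with log2 changes from -1.11 ± 0.15 at the first to -1.63 ± 0.16 at the last, when its host stood at -1.97 ± 0.31 and had fallen too. Over 7.01% and 1.16% of their length these units shared their strand with Gm51956 and Gm5250.

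Among the fewer units that rose, the one that started inside the host TU of Gm31786 (chr8:47744250-47789680, + strand) had the smallest p at 2 and 6 hpd. Its CPM were 23.4 and 20.1 in NT, 36.2 and 37.5 after 0.5 h, 41 and 37.4 after 1 h, 53.4 and 53.3 after 2 h, and 71.1 and 52.2 after 6 h. Every depleted library lay above both NT libraries, with log2 changes from 0.76 ± 0.14 at 0.5 hpd, a call lost without any 1 of the NT or 0.5 hpd libraries, to 1.50 ± 0.14 at 6 hpd. In Rfc1, the large subunit of the clamp loader of DNA replication, an intronic unit of 8.72 kb went from 6.73 and 7.41 CPM in NT to 15.9 and 15.5 after 2 h and 15 and 13.7 after 6 h, rises of 1.15 ± 0.15 and 1.02 ± 0.15 on the log2 scale, while Rfc1 itself, at 178 and 175 CPM in NT and 194 and 206 after 6 h, was not called. Opposite Celsr3, the gene of an adhesion receptor of the cadherin family, the unit went from 18 and 21.9 to 46.4 and 49 CPM, a rise of 1.26 ± 0.15, beside a host at 20.6 and 16.1 and 20.6 and 16.4.

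In Fyn, a Src-family kinase gene, the intronic antisense unit and the host both rose at 6 hpd, by 0.74 ± 0.13 and 0.56 ± 0.12 on the log2 scale. At Gm29891 the antisense unit went from 0.942 and 1.16 CPM in NT to 5.62 and 7.51 after 6 h and the host from 5.38 and 9.88 to 36.2 and 54.3, with log2 changes of 2.64 ± 0.31 and 2.58 ± 0.30. The units opposite Gm31288 and Rps27rt lay on the strands of Fgfr1 and of Osbpl10, an oxysterol-binding protein gene. The former had 87.8 and 92.3 CPM in NT and 145 and 154 after 6 h, a rise of 0.73 ± 0.10. The latter rose by 0.66 ± 0.13 at 1 hpd, a change that did not pass without NT replicate 2 or 1 hpd replicate 2.

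The unit opposite Gm35545 and the one in Slc39a11 rose at 0.5 and 1 hpd, and at 6 hpd their libraries lay below both NT libraries. The first covers 64.2 kb of chromosome 16 on the strand of immunoglobulin lambda genes. Its CPM were 20.9 and 22.5 in NT, 40.5 and 34.6 after 0.5 h, 39.1 and 46.1 after 1 h, 20.3 and 18 after 2 h, and 6.32 and 7.34 after 6 h. Both early groups lay above NT and the last below. The log2 change was 0.80 ± 0.13 at 0.5 hpd, not passing without NT replicate 1, NT replicate 2 or 0.5 hpd replicate 1, then 0.97 ± 0.13 after 1 h and -1.66 ± 0.15 after 6 h. Its host had 10.7 and 11.3 CPM in NT and 0.913 and 1.16 after 6 h. The intronic unit in Slc39a11, a zinc transporter gene, had 7.13 and 8.72 CPM in NT, 13.8 and 17.5 after 0.5 h and 5.34 and 5.88 after 6 h. It rose by 0.97 ± 0.17 at 0.5 hpd and 0.69 ± 0.17 at 1 hpd, the former not without either NT library or 0.5 hpd replicate 2 and the latter not without any of the NT or 1 hpd libraries or with library totals. Its 6 hpd change was -0.49 ± 0.19 (adjusted p = 0.089, edgeR).

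**Figure D4:**
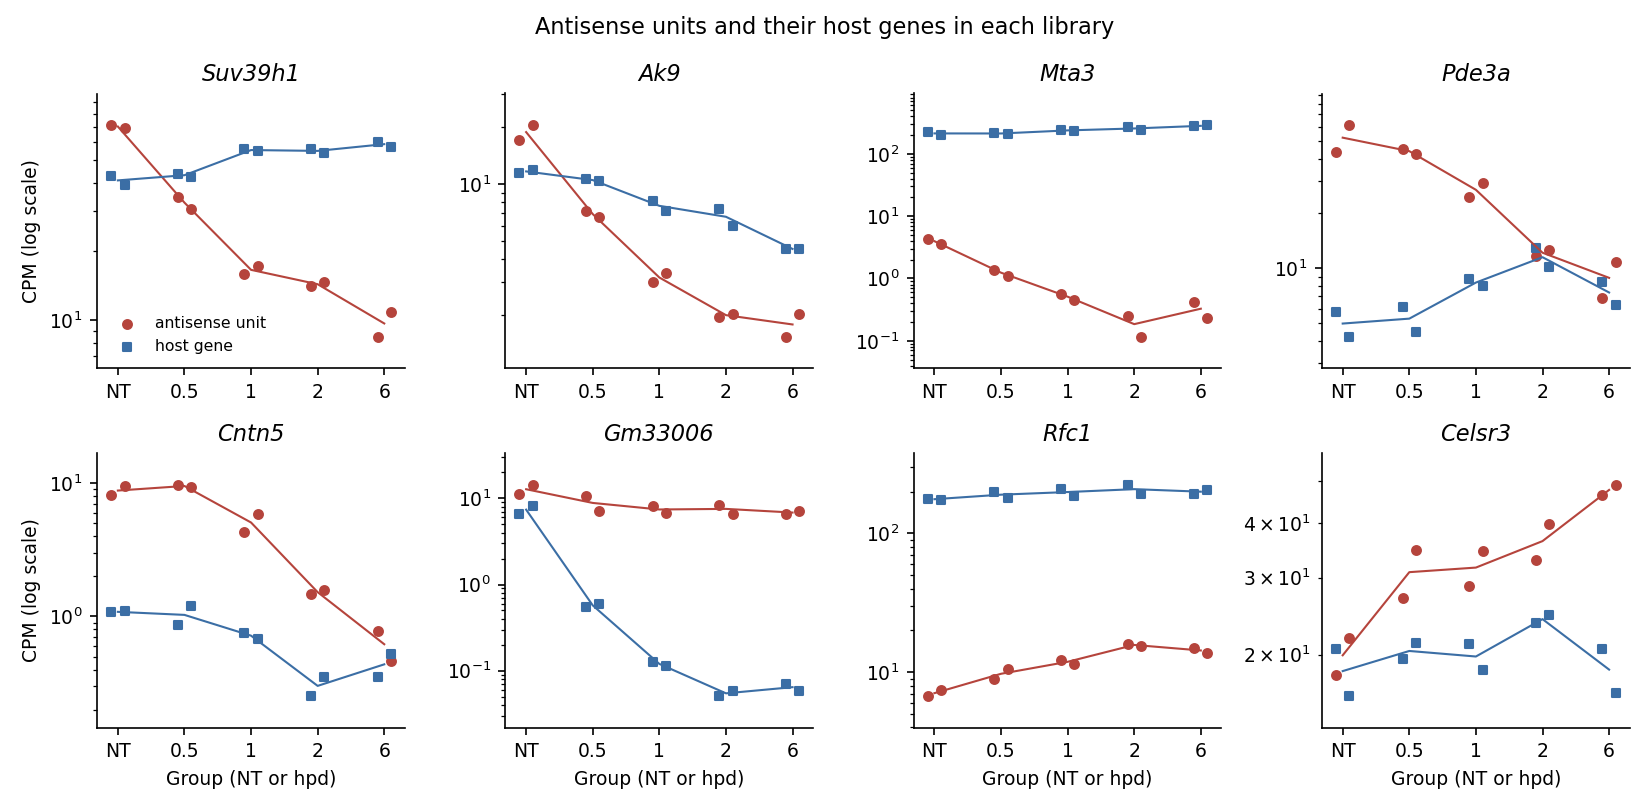
CPM on a log scale of 8 antisense units (red circles) and their host genes (blue squares) in each of the 10 libraries, with lines through the means of the 2 replicates at NT, 0.5, 1, 2 and 6 hpd. The antisense units in Suv39h1, Ak9, Mta3, Pde3a and Cntn5 drop, those in Rfc1 and Celsr3 climb, and in Gm33006 the host drops from 6.66 and 8.14 CPM in NT.

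With TMM factors more hosts rose than fell. Over 2051 tested hosts, 30, 127, 211 and 285 rose at 0.5, 1, 2 and 6 hpd, whereas 15, 86, 138 and 208 fell. Of all TUs of a single gene, 0.835%, 3.55%, 6.88% and 10.4% rose and 0.801%, 3.56%, 5.33% and 7.73% fell, beside 13.9% and 10.1% of hosts at the last time. Without NT replicate 2, 46, 79 and 132 hosts rose at 1, 2 and 6 hpd and 39, 78 and 110 fell. When 1 hpd replicate 2 was left out, 44 hosts rose and 36 fell at 1 hpd. When 2 hpd replicate 2 was left out, 205, 369 and 404 rose at the last 3 times. The median host log2 change was 0.03, 0.07, 0.09 and 0.09 at the 4 times. With library totals 30, 102, 168 and 244 hosts rose and 23, 133, 205 and 275 fell, so that from 1 hpd on the order turned. Under that scaling the median of all TUs was -0.13 at 6 hpd and the host medians were -0.003, -0.02, -0.03 and -0.003, so that their sign depends on the scaling, whereas the median of the antisense units was below 0 under TMM, RLE factors, library totals and DESeq2.

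Whether an antisense unit and its host changed to a different degree was tested in 1 edgeR fit that held both strands of each library, over 4591 pairs of all antisense classes. Among the 2381 pairs of gene-body units, the antisense-to-host ratio fell in 7 and rose in 1 at 0.5 hpd, where 0.283% and 0.0436% of all pairs did. It fell in 39 and rose in 9 at 1 hpd (all pairs 1.35% and 0.196%), in 100 and 26 at 2 hpd (3.46% and 0.849%) and in 254 and 41 at 6 hpd (8.12% and 1.35%). Single libraries moved these counts. Without NT replicate 2 the ratio fell in 21, 38 and 82 pairs at 1, 2 and 6 hpd and without NT replicate 1 in 73, 172 and 364, while it fell in 8 at 1 hpd without 1 hpd replicate 1, in 27 at 2 hpd without 2 hpd replicate 1, and in 95 and 97 at 6 hpd without either library of that time. Of 230 unannotated units that fell at 6 hpd and had a tested host, the host fell in 63 (27.4%), rose in 21 (9.13%) and was not called in 146, and the ratio fell in 142. Of 32 that rose, the host rose in 14 (43.8%) and fell in 1. Among the 1822 units not called, 7.90% of hosts fell and 15.3% rose. Across the 2084 pairs the log2 changes of both strands at 6 hpd correlated at Pearson's r of 0.224, a description over pairs that share their libraries and some of their hosts.

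**Figure D5:**
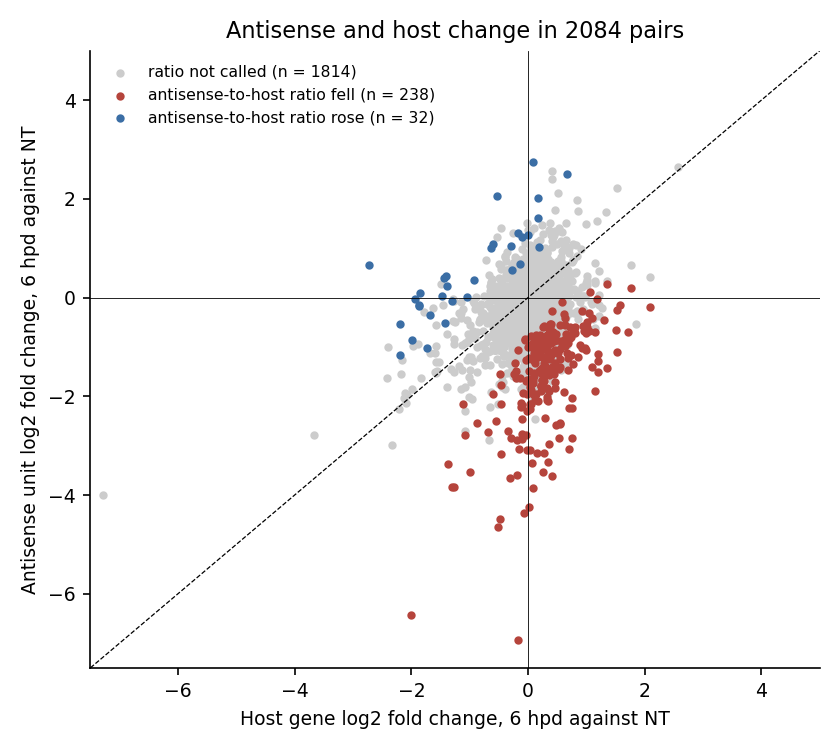
Log2 change at 6 hpd against NT of the host gene (x axis) and of the unannotated antisense unit opposite it (y axis) for 2084 pairs, with pairs whose antisense-to-host ratio passed the test in colour and a dashed line at equal change. The ratio fell in 238 pairs (red) and rose in 32 (blue), with all 10 libraries in the fit.

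The 3 falling ratios with the smallest p were at Suv39h1 (-3.38 ± 0.22 on the log2 scale at 6 hpd), Mta3 (-4.61 ± 0.41 at 2 hpd) and Pde3a (-3.28 ± 0.32 at 2 hpd). The rising ones were at Gm33006, Gm35545 and Slc28a1, each with a host that fell. Gm33006 had 99 and 112 in NT, 14 and 7 after 0.5 h, 2 and 2 after 1 h, 1 and 1 after 2 h, and 1 and 1 after 6 h as raw fragments, while the unit opposite it, on the strand of Rmdn2, went from 11.2 and 14.4 CPM in NT to 6.53 and 7.16 after 6 h, a fall that did not pass without NT replicate 2 or 6 hpd replicate 1. Slc28a1, a nucleoside transporter gene, went from 47.9 and 43.5 CPM in NT to 24.7 and 24.2 after 0.5 h and 13.5 and 11.7 after 6 h, a log2 change of -1.86 ± 0.14. Its intronic antisense unit stood at 8.68 and 7.05 CPM in NT and 7.66 and 6.52 after 6 h, a log2 change of -0.16 ± 0.18 (adjusted p = 0.61, edgeR).

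Of 36 genes listed for the pluripotency network, 9 hosted 12 units, of which 2, 3 and 1 fell at 1, 2 and 6 hpd, with no other call, where 3.61%, 5.57% and 9.2% of all TUs fell. Their median log2 change at the 4 times was -0.21, -0.38, -0.36 and -0.29. Tet2, whose product oxidises methylated cytosine, hosted 3 intronic units of 7.09 kb, 4.26 kb and 4.06 kb, with 14.8 to 17.2 fragments per library on average. All 3 fell at 2 hpd, with log2 changes of -1.78 ± 0.39, -1.65 ± 0.45 and -1.53 ± 0.37, and none of these calls held without NT replicate 2. The last 2 were also lost in DESeq2 and without NT replicate 1 or 2 hpd replicate 1, and the unit of 4.26 kb without 2 hpd replicate 2 as well. The first unit was the one called at 6 hpd (-1.19 ± 0.38, adjusted p = 0.044, edgeR), again not without NT replicate 2 or either 1 or 6 hpd library, nor in DESeq2 or with no count filter. Tet2 itself had 421 and 428 CPM in NT and 399 and 341 after 2 h and was not called.

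On the strand opposite Sox2 and the long noncoding RNA gene Sox2ot around it, a unit of 35.8 kb had CPM of 22.4 and 29.9 in NT, 21.2 and 22.3 after 0.5 h, 16.2 and 16.6 after 1 h, 18.9 and 21.4 after 2 h, and 20.5 and 22.1 after 6 h. All depleted libraries lay below both NT libraries, though the highest, at 22.3 CPM, was close to NT replicate 1. The 1 hpd change, -0.67 ± 0.14 (adjusted p = 0.01, edgeR), no longer passed without NT replicate 2 or either 1 hpd library. The unit was not called at 0.5, 2 or 6 hpd (-0.27, -0.38 and -0.29, adjusted p = 0.61, 0.11 and 0.17, edgeR). Opposite Fgf4, a growth factor gene, the unit had 10.8 and 11.8 CPM in NT and 6.46 and 6.89 after 1 h, and fell with a log2 change of -0.76 ± 0.20 that did not pass without any 1 of the NT, 1 hpd or 6 hpd libraries or with a mean of at least 50 fragments. Its host fell from 1 hpd on, with -0.97 ± 0.13, -1.35 ± 0.13 and -1.42 ± 0.13, while the unit was not called at 2 or 6 hpd (-0.59 ± 0.20 and -0.51 ± 0.20). The antisense-to-host ratio was up by 0.91 ± 0.22 at 6 hpd (adjusted p = 0.011, edgeR), a call that needed both 6 hpd libraries. Units opposite Tfcp2l1, Dppa3, Nanog, Zfp42, Esrrb and Jarid2 and another opposite Sox2 were not called.

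Of 34 chromatin regulator genes, 10 hosted 11 units, of which 1, 1, 1 and 2 fell at the 4 times, with no other call, where 0.787%, 3.61%, 5.57% and 9.2% of all TUs fell. Their median log2 changes were -0.18, -0.14, -0.29 and -0.59. Beside the unit over Suv39h1, one of 0.762 kb in an intron of Setdb1, which also encodes an H3 lysine 9 methyltransferase, changed by -1.27 ± 0.34 at 6 hpd (adjusted p = 0.018, edgeR), from 2.02 and 3.12 to 1.26 and 0.874 CPM, and not in DESeq2 or without NT replicate 2 or 6 hpd replicate 2. The unit at the 3′ end of Top1, the gene of DNA topoisomerase I, had 4 to 21 fragments per library, lay over 86.3% of its length on Gm52567 and was not called. The paper reports a trend at Top1 like that at Suv39h1, where an antisense transcript fell as the gene rose. Whether the Top1 transcript it shows is this unit was not tested. Top1 itself rose by 0.59 ± 0.15 at 2 hpd and 0.49 ± 0.15 at 6 hpd on the log2 scale (adjusted p = 0.023 and 0.042, edgeR), the former not without either NT library or 2 hpd replicate 1, and the latter not without any of the NT, 1 hpd or 6 hpd libraries or with a mean of at least 50 fragments.

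Most hosts had a single antisense unit. Of the hosts of unannotated units, 1595 had 1, 187 had 2 and 35 had 3. Over all units of the class, Fam189a1, Gm14403 and Nmnat2, an enzyme gene of NAD synthesis, faced 6 units each, and 4 of those opposite Gm14403 overlapped a gene on their own strand. Of these 18, 1 opposite Gm14403, on the strand of Gm14411 over 52.9% of its length, fell at 2 and 6 hpd and 1 in Fam189a1 rose at 6 hpd (adjusted p = 0.018 and 0.049 at 6 hpd, edgeR), where 9.2% of all TUs fell and 6.61% rose. The unit opposite Gm14403 had 23 and 75 fragments in the 6 hpd libraries. Its log2 change there was -1.31 with all libraries, -0.78 without the first of these and -2.22 without the second. Neither of its calls held without NT replicate 2 or without replicate 1 of the later time. The rise in Fam189a1 was lost in DESeq2, with no count filter, with library totals, with only the libraries compared, and without NT replicate 1 or any of the 0.5, 1 or 6 hpd libraries. The 3 hosts were not called at any time.

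Successive times were compared without a replicate block, which raises the counts of calls. Against 0.5 hpd, 3 units fell and 0 rose at 1 hpd in edgeR, where 0.0984% and 0.0105% of all TUs did, and 127 had an unadjusted p under 0.05 (4 calls in DESeq2). Between 1 and 2 hpd, 5 fell and 0 rose (0.197% and 0.0211%), with 132 at an unadjusted p under 0.05 (8 calls in DESeq2). Between 2 and 6 hpd, 4 fell and 1 rose (0.517% and 0.26%), with 275 at an unadjusted p under 0.05 (16 calls in DESeq2), and between 1 and 6 hpd 58 fell and 19 rose (2.92% and 1.96%), with 444 at an unadjusted p under 0.05 (54 calls in DESeq2).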

How the data were processed

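The authors deposited raw fragment counts per TU, without normalization, and a list of TU coordinates (other values, mm10) with class labels. Per the methods of the study and the submitters' processing notes, reads were aligned with BWA 0.7.17-r1188, filtered on mapping quality with SAMtools 1.10, freed of duplicates with Picard 2.12.0 and split by strand, and TUs were defined on pooled libraries with a hidden Markov model and counted. The mapping-quality filter bears on units in repeats.

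The 28459 TUs above the fragment filter entered edgeR 4.0.16 (R 4.3.3) with TMM factors, 1 coefficient per group and the quasi-likelihood F-test over all 10 libraries, and were called at an adjusted p under 0.05. SE were obtained as |log2 change| divided by the root of F, CPM use TMM factors and the biological coefficient of variation was 10.0%. The host is the single-gene TU with the largest overlap on the opposite strand. Ratios were tested in a stacked fit of both strands with the library as a block. Genes, exons and soft-masking came from RefSeq GRCm38.p6, the same assembly as mm10, and deposited positions were taken to count from 1. Named units were the 4 down and 4 up with the smallest p at each time whose 2 depleted libraries lay outside the NT range, the 3 strongest ratios in each direction, the 3 densest, and units hosted by Suv39h1, Top1 or a listed gene, and 1 unit so chosen is not reported here. Members and lists were chosen with earlier results of these data known. In simulated data for 6 hpd over 28459 TUs, 6%, 28% and 82% of falls of 0.5, 1 and 2 on the log2 scale and 100% of rises of 2 were recovered, with 3.57% of calls false. Each size was given to 50 units of the class above a set mean count. Sparser units, and a comparison with as many changes as the real one, were not covered.

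Replicates differed by more than counting error (chi-square per degree of freedom 2.69 to 9.03), so each counted as 1 sample. Intervals cover counting error only. Alternatives were DESeq2 1.42.0, RLE factors, library totals, other count filters, only the libraries compared, limma 3.58.1 on ratios, stricter overlap, a replicate block and leaving out each library.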

Additional observations from a re-analysis of the deposited data

Results flagged for a closer look

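The changes at 6 and 1 hpd differed in the direct test of 6 against 1 hpd (edgeR, adjusted p under 0.05) for 9 of the named units. On the log2 scale, the difference was -0.77 opposite Suv39h1, -2.64 opposite Gm35545, -1.18 in Slc39a11, -1.59 opposite Pde3a, -0.87 opposite Gabrp and -3.05 opposite Cntn5, all lower at 6 hpd. It was 0.65 opposite Gm31786, 1.70 opposite Gm29891 and 0.59 opposite Celsr3, all higher at 6 hpd. The units opposite Gm35545 and in Slc39a11 lay above NT at 1 hpd and, at 6 hpd, below every NT library. No explanation was tested.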

How the results depend on the processing

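Counts at 0.5, 1, 2 and 6 hpd are given in that order. With the replicate block, 57, 169, 281 and 478 antisense units fell and 36, 42, 84 and 105 rose, 49, 143, 221 and 288 hosts fell and 89, 255, 447 and 472 rose, the ratio fell in 28, 113, 235 and 406 pairs and rose in 13, 27, 54 and 71, and successive times (1 against 0.5, 2 against 1, 6 against 2 and 6 against 1 hpd) gave 19, 15, 63 and 207 calls. Deviations of same-numbered libraries correlated at 0.044 to 0.185 over the antisense units and 0.074 to 0.291 over all TUs, above 0.1 for the 6 pairs among NT, 0.5, 1 and 2 hpd but not for every pair with 6 hpd, and the labels name no shared batch, so the block was not used for the reported values. DESeq2 called 12, 51, 90 and 171 antisense units down and 9, 19, 32 and 33 up, all but 1 of its 171 at 6 hpd shared with edgeR, and 4, 8, 16 and 54 at successive times. A mean of at least 50 fragments, which tests fewer units, left 9, 45, 79 and 132 down and 7, 14, 26 and 28 up. Library totals gave 6, 12, 19 and 37 up, and 23, 133, 205 and 275 hosts down. With only the libraries compared, 11, 34, 29 and 71 units and 31, 350, 155 and 441 hosts rose. Ratios over units wholly in the host fell in 4, 25, 63 and 215 and rose in 0, 4, 14 and 24, and with at least 50% in the host rose in 0, 5, 19 and 34. With limma-trend they rose in 1, 18, 33 and 56. With 300 bases upstream in place of the window around the start, the SOX core share was 12.8% in place of 10.5% among unannotated units with a host, 12.6% in place of 10.9% over the class and 10.5% in place of 9.41% over all TUs.

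Leaving out 1 library in turn gave 4 to 25, 40 to 106, 69 to 164 and 103 to 329 antisense units down, 1 to 13, 7 to 28, 15 to 44 and 28 to 80 up, 6 to 22, 36 to 100, 78 to 147 and 110 to 224 hosts down, 10 to 43, 44 to 205, 79 to 369 and 132 to 404 up, 0 to 7, 8 to 73, 27 to 172 and 82 to 364 ratios down, 1 to 2, 3 to 12, 11 to 25 and 18 to 43 up, and 0 to 4, 2 to 6, 1 to 8 and 22 to 86 calls at successive times. Where a group is left with 1 library, it is taken to vary like the others. Of 139 changes of named units, hosts and ratios, 89 passed under every alternative, 50 were lost when some library was left out, and none turned direction. Depth limits the class: the median unit had 18 fragments per library.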
